A study of Mus musculus with 20 samples.

Results

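Guanylate-binding proteins are large GTPases that interferons, above all interferon-gamma, induce in many cell types. The family was followed here through its 10 listed mouse members, Gbp2, Gbp2b, Gbp3, Gbp4, Gbp5, Gbp6, Gbp7, Gbp8, Gbp9 and Gbp10, found by symbol among 49315 gene identifiers. All 10 were matched to 1 identifier each, and all 10 passed the filter on low counts, Gbp2b only through its day 7 libraries. Expression was measured by RNA sequencing in eosinophils, granulocytes that store toxic cationic proteins, sorted by flow cytometry from mouse lung. The resting group (n = 5) came from untreated C57BL/6 mice. The day 7 group (n = 5) came from C57BL/6 recipients of a Balb/c lung 7 days after transplantation, and its titles state that no costimulatory blockade (CSB) was given. The growth protocol of these samples repeats the wording on transplants with CSB, and the titles were followed. Each library pooled lungs of 3 to 5 mice, the labels describe graft eosinophils as the recipient's own, and the labels used here name neither the age nor the sex of the mice. The groups with CSB at day 7 and day 30 were not analysed here.

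In cells, these GTPases bind GTP, assemble into coats on the vacuoles and membranes of intracellular bacteria and parasites, and promote inflammasome activation. Gbp2, Gbp2b (also called Gbp1) and Gbp5 end in a signal for the attachment of a prenyl lipid, which anchors the protein in membranes. The genes lie in a pair of clusters. Gbp5, Gbp7, Gbp3, Gbp2b and Gbp2 stand in that order on the plus strand of chromosome 3, and Gbp8, Gbp9, Gbp4, Gbp10 and Gbp6 on the minus strand of chromosome 5 (mm10, GENCODE M21). All 10 are annotated as protein-coding genes, and counts refer to whole genes.

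Interferons act on such genes through interferon regulatory factors, which bind the interferon-stimulated response element (ISRE), and, for interferon-gamma, through the gamma-activated site (GAS). Promoters are shown for the members whose sequence could be matched, to give the letters on which interferon signals can act. RefSeq sequence (GRCm38.p6, the assembly behind mm10) was matched for 5 of the 10 members, all on chromosome 3, and the 250 bases before each annotated start were searched on both strands for the ISRE core GAAANNGAAA and the GAS core TTCNNNGAA. Each stretch below is written 5′ to 3′ on the coding strand, with motif matches in capitals. Every ISRE match lay on the opposite strand, so that it appears as its reverse complement.
Gbp2, chr3:142620579-142620628, plus strand: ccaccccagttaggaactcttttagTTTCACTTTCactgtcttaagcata
Gbp2b, chr3:142594685-142594734, plus strand: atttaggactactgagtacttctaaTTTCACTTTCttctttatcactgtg
Gbp3, chr3:142559974-142560029, plus strand: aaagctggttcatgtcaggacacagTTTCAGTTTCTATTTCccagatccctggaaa
Gbp7, chr3:142530205-142530307, plus strand: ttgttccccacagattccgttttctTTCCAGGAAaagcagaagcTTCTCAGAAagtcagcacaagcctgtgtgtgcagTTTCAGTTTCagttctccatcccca
Gbp5, chr3:142496684-142496905, plus strand: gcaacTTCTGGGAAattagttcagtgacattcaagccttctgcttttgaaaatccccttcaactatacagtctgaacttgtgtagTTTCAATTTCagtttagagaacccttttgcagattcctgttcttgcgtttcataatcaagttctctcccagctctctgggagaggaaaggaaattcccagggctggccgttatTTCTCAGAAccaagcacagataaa
All 5 genes held an ISRE core, against 2.98% of the 32851 promoter windows of the same length in the RefSeq table. The core read GAAAGTGAAA in both Gbp2 and Gbp2b, GAAACTGAAA in both Gbp3 and Gbp7, and GAAATTGAAA in Gbp5. Gbp3 held a further, overlapping match, GAAATAGAAA, and a second RefSeq start of the gene had no match in its window. GAS cores were found in Gbp5 and Gbp7, 2 in each, against 7.02% of all windows, and the shared core TTCTCAGAA occurred in both genes. Windows with both motifs made up 0.332% of the whole table. In the lines above, the ISRE core of Gbp2, Gbp3 and Gbp7 lies close to the RefSeq start, and that of Gbp2b and Gbp5 lies farther upstream. In GENCODE the Gbp2 gene starts earlier, at 142620602. There 27 of the 50 Gbp2 bases shown, the core among them, lie within an exon. The Gbp5 and Gbp3 genes also start earlier in GENCODE, at 142493978 and 142560026. Of the bases shown, 6 of 222 in Gbp5 and 4 of 56 in Gbp3 lie within an exon. Such matches are letters in these windows and were not measured as bound sites.

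**Figure D1:**
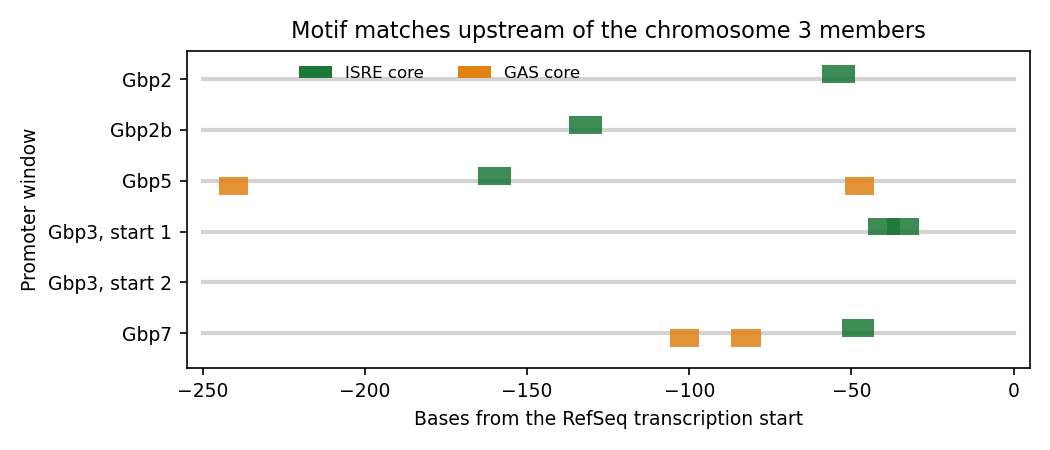
Positions of ISRE cores (green) and GAS cores (orange) in the 250 bases before each RefSeq start of the 5 chromosome 3 members (x axis, bases from the start). The ISRE core begins 59 bases before the start in Gbp2, 53 in Gbp7, 45 in Gbp3, 137 in Gbp2b and 165 in Gbp5. GAS cores appear in Gbp5 and Gbp7, and the window of the other Gbp3 start is empty.

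The libraries held 6666577 to 12883144 counts in the resting group and 15695074 to 26683784 at day 7, so low members are measured more precisely at day 7. Resting and day 7 counts came from separate deposited tables, and any batch between them cannot be told apart from the group. Of 12 eosinophil markers none was at 0 in either group. Their summed level was 1939 to 3616 CPM (counts scaled to a common library total) in resting libraries and 1373 to 4143 CPM at day 7. Ccr3, the eotaxin receptor, stood at 356 ± 141 (SD, n = 5) and 443 ± 254 CPM, and of the 12 markers 2 were higher at day 7, 4 were lower and 6 did not pass. The higher ones were Il1rl1, the interleukin-33 receptor (log2 fold change 1.23), and Siglecf (0.59), and the lower ones were the granule protein genes Prg2 (-2.51), Epx (-3.75), Prg3 (-2.81) and Ear2 (-1.97). Siglecf did not pass in 12 of 18 alternative fits. Over all genes tested 23.3% were higher and 23.4% lower, so the eosinophil counts are not a result about that list. The same shares stand beside the counts of the other marker lists here. Markers of other cells were detected in both groups. The monocyte and macrophage sum was 2401 to 3484 CPM in resting lung and 5173 to 12292 CPM at day 7, with 12 of 14 markers higher, none lower and 2 that did not pass. The T cell sum was 129 to 185 CPM and 464 to 1009 CPM, with 12 of 12 higher. The 10 endothelial markers all fell, from sums of 1979 to 2694 CPM to 81.7 to 151 CPM. The epithelial sum was 3374 to 4737 CPM in resting lung and 79.5 to 524 CPM at day 7. The neutrophil sum was 2277 to 5803 CPM in resting lung and 1043 to 6467 CPM at day 7. In such bulk libraries more cells of a type and more RNA per cell cannot be told apart, and which cells gave the family's RNA was not tested.

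All 10 members were higher in day 7 grafts than in resting lung, and for all 10 every day 7 library lay above every resting library. Over all 16500 genes tested, 23.3% were higher at an adjusted p below 0.05 and 16.4% had all day 7 libraries above all resting libraries (edgeR's quasi-likelihood test, Benjamini-Hochberg adjustment over all genes). The members' log2 fold changes (day 7 minus resting) had a median of 3.19 and a range of 1.36 to 6.64, against a median of 0.05 over all genes tested. Of the members, 6 rose at least 8-fold, as did 0.891% of all genes tested. Gbp2b, which entered the test through its day 7 libraries alone, had to differ. The other 9 members were all higher, with a median of 3.11, and 5 of them rose at least 8-fold. With library totals alone in place of TMM scaling, the all-gene median shifted by -0.19, and the calls over all genes went from 3843 higher and 3859 lower to 2495 higher and 4883 lower. The 10 members stayed higher under that scaling, with a median of 2.98. Values by library below are in CPM on TMM-scaled totals, replicates 1 to 5 in order.

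The family's summed level went from 462 ± 119 CPM (SD, n = 5; 347 to 621) in resting lung to 4999 ± 2679 CPM (n = 5; 2470 to 9406) at day 7. As a share of all counts, it went from 0.0491% ± 0.0126 to 0.461% ± 0.231. The day 7 sums were 9406, 5013, 4800, 3309 and 2470 CPM. Day 7 replicate 1 was the highest of its group for 9 of the 10 members, all but Gbp2b, and replicate 5 was the lowest for all 10. Among resting libraries, replicate 2 was highest for 7 members and replicate 5 lowest for 7. Members of 1 library share its cells and its scaling, so the 10 orders are not independent.

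**Figure D2:**
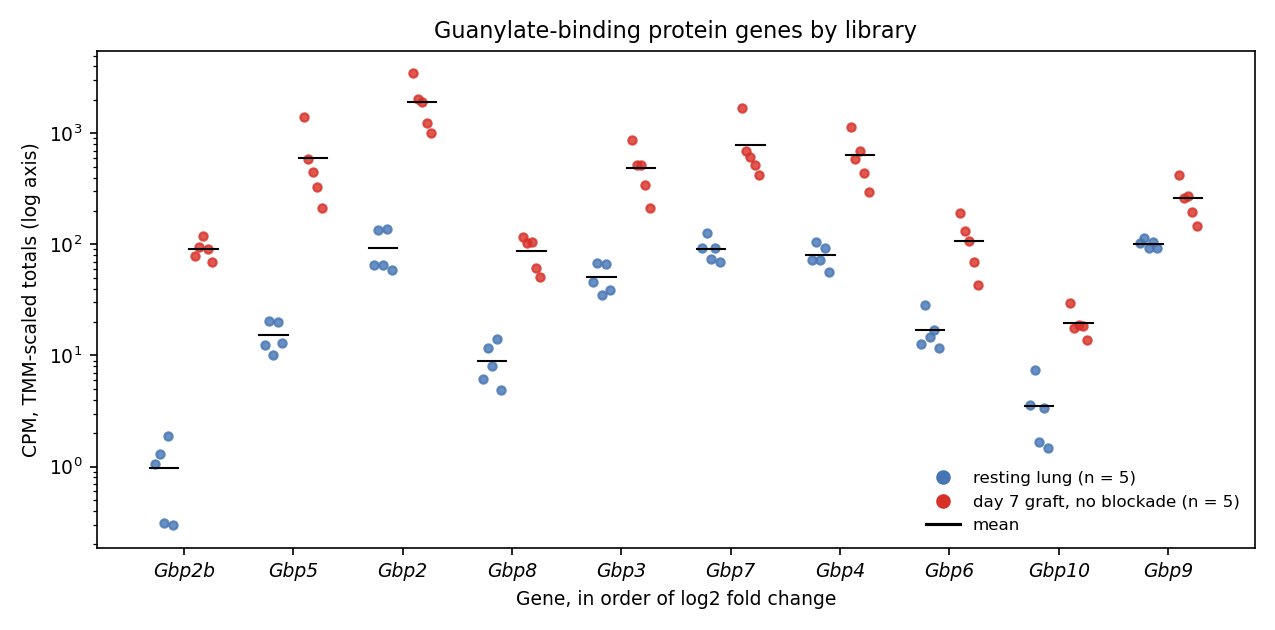
CPM of each member (log axis) in the 5 resting (blue) and 5 day 7 (red) libraries, each point 1 library and each bar a group mean, with genes in order of log2 fold change. No member's groups overlap. Gbp9 has the narrowest gap, with 114 CPM as its highest resting value and 146 CPM as its lowest day 7 value.

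Gbp2b, Gbp5 and Gbp2 are the members with a prenylation signal. Gbp2b, whose gene spans 142594847 to 142619179 on chromosome 3 (ENSMUSG00000040264), was nearly silent in resting lung. Its resting libraries stood at 1.06, 1.29, 0.31, 1.89 and 0.296 CPM, from 10, 13, 3, 14 and 4 counts, and 3 counts is the floor used here. At day 7 the libraries stood at 79.1, 93.9, 119, 91.8 and 70 CPM. Every day 7 library was thus far above every resting one, and the day 7 values lay close together. The fitted log2 fold change was 6.64 ± 0.34 (SE; adjusted p = 1.06e-08). It is given as a description, since its size rests on few resting counts and the gene entered the test only through the group where it is high.

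Gbp5, which is known for a role in inflammasome activation, spans 142493978 to 142522344 on chromosome 3 (ENSMUSG00000105504). Resting libraries stood at 12.3, 20.5, 10.1, 20.1 and 12.9 CPM and day 7 libraries at 1407, 584, 453, 328 and 212 CPM. Day 7 replicate 1 stood well above the rest of its group, and even replicate 5 was 10.4 times the highest resting library. The log2 fold change was 5.30 ± 0.51 (SE; adjusted p = 2.25e-06), the largest among the 9 members other than Gbp2b. Leaving out day 7 replicate 1 took the day 7 mean from 597 ± 474 CPM (SD, n = 5) to 394 ± 160 CPM (n = 4) and the log2 fold change to 4.72.

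Gbp2, a member known for recruitment to pathogen vacuoles, spans 142620602 to 142638008 on chromosome 3 (ENSMUSG00000028270). Resting libraries stood at 65.5, 136, 65.9, 139 and 59.1 CPM, and day 7 libraries at 3468, 2017, 1895, 1239 and 1002 CPM. Resting replicates 2 and 4 were about level and above the other three, and every day 7 library exceeded them. The log2 fold change was 4.37 ± 0.40 (SE; adjusted p = 1.49e-06), from 93 ± 40.5 to 1924 ± 964 CPM (SD, n = 5 each).

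The chromosome 3 members without a known prenylation signal, Gbp3 and Gbp7, also act in the vacuole coat. Gbp3 (ENSMUSG00000028268; 142560026 to 142573209) stood at 46, 68, 34.9, 66.4 and 39.2 CPM in resting libraries and at 870, 516, 518, 346 and 212 CPM at day 7. Its log2 fold change was 3.28 ± 0.35 (SE; adjusted p = 6.17e-06). The groups were well apart, with the lowest day 7 library 3.12 times the highest resting one. Gbp7 (ENSMUSG00000040253; 142530342 to 142550149) stood at 93.2, 127, 73.6, 93.2 and 68.7 CPM in resting libraries and at 1679, 699, 614, 520 and 425 CPM at day 7. Its log2 fold change was 3.11 ± 0.36 (SE; adjusted p = 1.25e-05). Day 7 replicate 1 stood far above the other four for Gbp7, and without it the day 7 mean was 565 ± 118 CPM (SD, n = 4) in place of 788 ± 509 CPM (n = 5).

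The chromosome 5 members had smaller log2 fold changes than Gbp5 and Gbp2, from resting levels that differed widely. Gbp4 (ENSMUSG00000079363; chromosome 5, 105115767 to 105139586) stood at 72, 106, 71.7, 93.7 and 55.9 CPM in resting libraries and at 1142, 589, 697, 440 and 294 CPM at day 7, a log2 fold change of 2.98 ± 0.33 (SE; adjusted p = 8.21e-06). Gbp8 (ENSMUSG00000034438; 105014150 to 105139540) stood at 6.15, 11.7, 7.96, 14.1 and 4.89 CPM and at 116, 103, 105, 61.6 and 51.3 CPM, a log2 fold change of 3.31 ± 0.32 (SE; adjusted p = 2.41e-06). In both genes all day 7 libraries were clearly above the resting ones, and for Gbp8 day 7 replicates 1 to 3 were nearly level. Gbp9 (ENSMUSG00000029298; 105077630 to 105139539) had the smallest change. Resting libraries stood at 103, 114, 92.1, 104 and 93.2 CPM and day 7 libraries at 424, 262, 273, 195 and 146 CPM, a log2 fold change of 1.36 ± 0.23 (SE; adjusted p = 0.000297). Its resting libraries were the most alike of the family, with a coefficient of variation of 8.94%, and the lowest day 7 library was 1.27 times the highest resting one.

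Gbp6 (ENSMUSG00000104713; chromosome 5, 105270702 to 105293698) and Gbp10 (ENSMUSG00000105096; 105215699 to 105239533) are near-identical copies, with 98.4% of 1833 aligned coding bases the same. Of the 100-base stretches of their transcripts, 64.5% in Gbp6 and 73.5% in Gbp10 also occur in another gene. Both share exon bases with Gm43302, which had 25 counts over the resting libraries and 235 over the day 7 libraries. No source used here says how multiply matched reads were counted, and the division between the copies is uncertain. Gbp6 stood at 12.7, 28.7, 14.7, 16.8 and 11.6 CPM in resting libraries and at 191, 131, 107, 68.9 and 43.4 CPM at day 7, a log2 fold change of 2.68 ± 0.38 (SE; adjusted p = 7.2e-05). Gbp10 stood at 3.6, 7.46, 1.65, 3.38 and 1.48 CPM and at 29.9, 17.5, 18.8, 18.3 and 13.8 CPM, a log2 fold change of 2.49 ± 0.38 (SE; adjusted p = 0.000153). Resting replicate 2 was the highest of its group for both. Their sum does not depend on how reads were divided between the 2 copies, though reads left out or given to Gm43302 are missing from it. It went from 20.4 ± 9.16 to 128 ± 62.5 CPM (SD, n = 5 each) without overlap.

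The other members share less sequence. Within chromosome 5 the members' coding bases were 90.5% to 98.4% identical, and within chromosome 3 they were 66.3% to 82.5% identical, with Gbp2 and Gbp2b the closest pair. The share of 100-base stretches found in another gene was 10% for Gbp7, all but a little of it in Gm43802, which had 0 counts in all 10 libraries. It was 4.39% or less for Gbp2, Gbp2b, Gbp3, Gbp4, Gbp5, Gbp8 and Gbp9. Gbp4, Gbp8 and Gbp9 also share a short first exon. Balb/c reads, where present, may match the C57BL/6 reference less well, which was not tested.

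**Figure D3:**
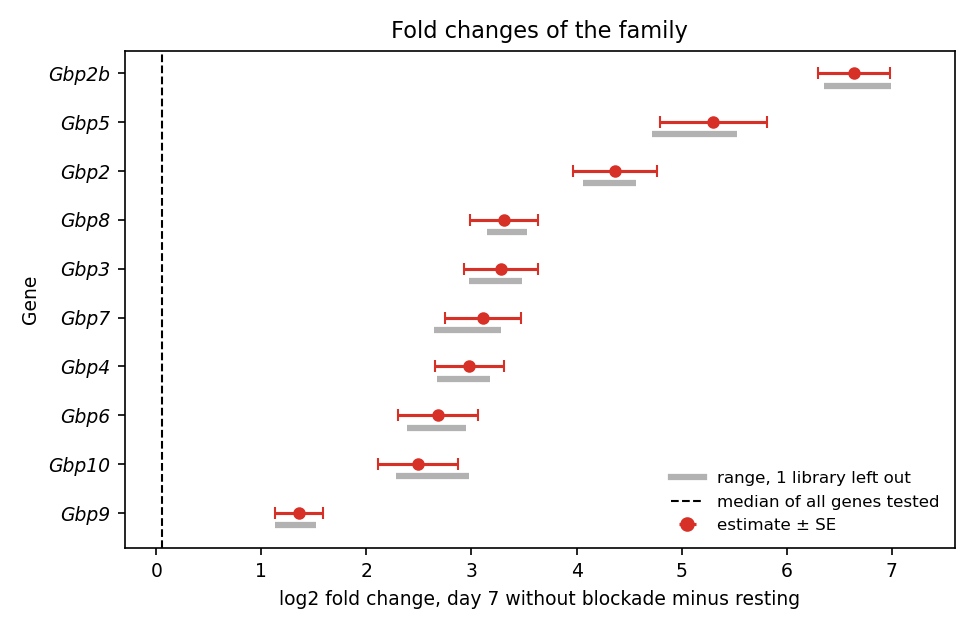
Log2 fold change of each member (day 7 minus resting, x axis) as a point with its SE, and below it in gray the range of the estimate when each of the 10 libraries was left out in turn. All ranges lie to the right of the median of all genes tested (dashed, 0.05). Gbp2b, whose estimate rests on few resting counts, stands first, followed by Gbp5 and Gbp2, and Gbp9 is last.

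Whether neighbours in that order differed was tested on the log2 ratio of 2 members within each library, with 0.5 CPM added, by two-sided exact permutation tests over 9 neighbouring pairs. The order was taken from the same libraries, so the direction of each difference follows from it, and the p-values do not allow for that choice of pairs. Before adjustment the smallest p that 5 against 5 libraries allow is 0.00794, which Gbp2 over Gbp8 reached. That ratio was 1.09 higher at day 7 on the log2 scale (adjusted p = 0.0476), and its groups did not overlap. Gbp5 over Gbp2 was 0.66 higher and Gbp10 over Gbp9 was 1.20 higher (adjusted exact p = 0.0476 for each), with overlapping groups. Gbp10 had only 16 to 75 counts in resting libraries, and the division of reads between it and Gbp6 is uncertain. The other 6 pairs did not pass, among them Gbp2b over Gbp5 at 1.07 (adjusted exact p = 0.143). With 2 CPM added, none of the 9 pairs passed, and the 3 named here had an adjusted exact p of 0.0714.

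The make-up of the family's signal differed between the groups. Counts from the chromosome 3 members made up 53.7% ± 3.54 (SD, n = 5) of the family's counts in resting lung and 77.4% ± 1.82 (n = 5) at day 7. Gbp2 went from 19.5% ± 3.89 to 38.9% ± 1.67 of family counts, Gbp5 from 3.27% ± 0.432 to 10.9% ± 2.52, and Gbp2b from 0.195% ± 0.112 to 2.16% ± 0.83. Gbp9 went the other way, from 22.7% ± 3.85 to 5.44% ± 0.59, although its own level rose. Gbp4 (17.4% ± 1.15 to 12.7% ± 1.17) and Gbp6 (3.6% ± 0.676 to 2.14% ± 0.312) also took a smaller share. The groups did not overlap for these 6 members, and they overlapped for Gbp3, Gbp7, Gbp8 and Gbp10. These are shares of counts, not divided by exon length. After division by exon length, Gbp3 (14.4% to 11%) and Gbp7 (15.3% to 10.1%) also took a smaller share without overlap. No test was made of these shares, which are bound to sum to the whole.

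**Figure D4:**
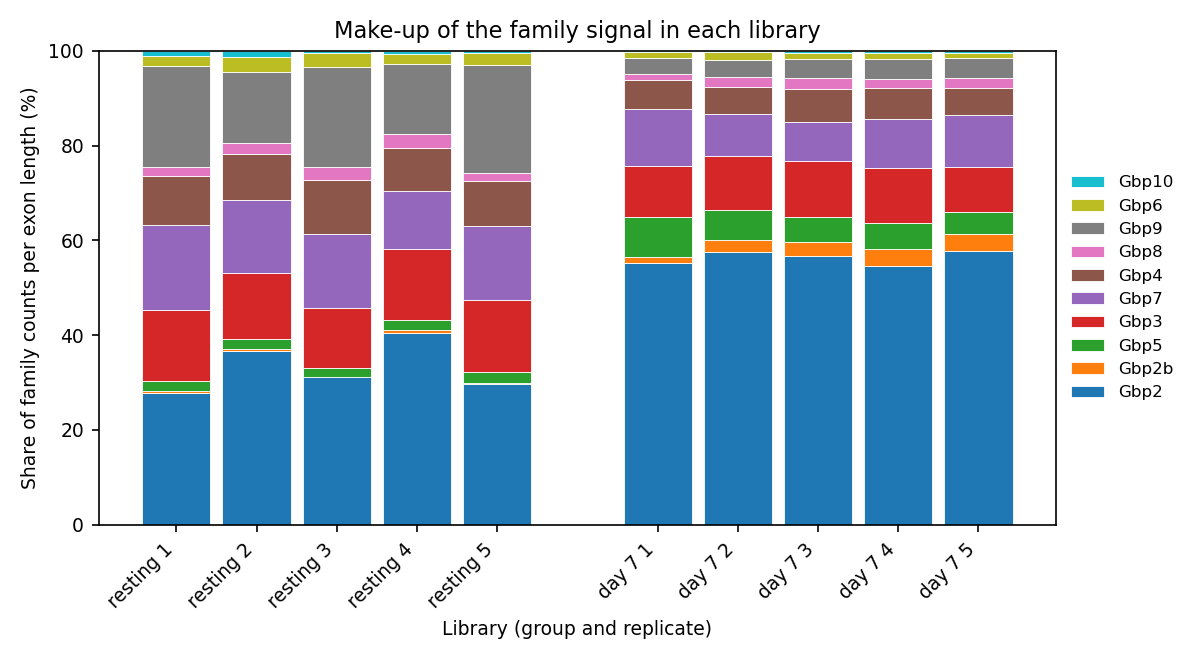
Share of the family's counts, each divided by the gene's exon length, taken by each member in the 10 libraries (stacked bars, %). Gbp2 (bottom, blue) holds 27.9% to 40.5% in resting libraries and 54.5% to 57.8% at day 7, and Gbp9 (gray) holds 14.7% to 22.8% and 3.29% to 4.17%.

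Members were ranked by their level per kilobase of exon. In resting lung the order was Gbp2 (37), Gbp9 (19.6), Gbp7 (16.2), Gbp3 (15.6), Gbp4 (10.7), Gbp6 (2.84), Gbp8 (2.6), Gbp5 (2.29), Gbp10 (0.908) and Gbp2b (0.344 CPM per kb). The ranges of neighbours did not overlap between Gbp2 and Gbp9 or between Gbp4 and Gbp6, and they overlapped for the other 7 neighbouring pairs. At day 7 the order was Gbp2 (765), Gbp3 (151), Gbp7 (140), Gbp5 (89.9), Gbp4 (84.4), Gbp9 (50.2), Gbp2b (32.1), Gbp8 (25.4), Gbp6 (18.2) and Gbp10 (5.07 CPM per kb). There only Gbp2 stood clear of its neighbour, at a median of 5.07 times Gbp3. Gbp2 was thus the highest member in both groups by mean. Gbp5 and Gbp4 could not be ordered at day 7, since Gbp5 was above Gbp4 in 2 of 5 libraries. With the mean transcript length in place of the union of exons, Gbp2 again had the highest mean in both groups, at 55.2 CPM per kb in resting lung and 1142 CPM per kb at day 7. On that scale Gbp3 (33.3), Gbp4 (33.3) and Gbp9 (31.9 CPM per kb) were about level in resting lung, and the range of Gbp3 overlapped that of Gbp2.

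The genes whose standardised profile over the 10 libraries was most like the family's mean profile, among 6958 other genes with a mean of at least 20 CPM, were Gvin1 (Pearson r 0.998), Oasl2 (0.996), Il15ra (0.993), Nmi (0.993) and Trim30a (0.992). These values describe the order of libraries that share depth, scaling and the difference between groups. Oasl2, an antiviral 2′-5′ oligoadenylate synthetase-like protein, went from 72.5 ± 19.4 to 442 ± 138 CPM (SD, n = 5 each), and Il15ra, the interleukin-15 receptor alpha chain, from 7.4 ± 1.13 to 42.7 ± 15.3 CPM.

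Of 14 genes of interferon signalling, the inhibitor Socs1 among them, 10 were higher at day 7, none was lower and 4 did not pass. Their median log2 fold change was 1.02 against 0.05 over all genes. Ifng, whose change is given below only as a description, is included in the 10 and in that median. Of all genes tested, 23.3% were higher and 23.4% lower. The ligand Ifng stood at 1.48, 0.398, 0.62, 0 and 0.889 CPM in resting libraries and at 14.8, 5.99, 24.8, 17.1 and 74.8 CPM at day 7. The day 7 replicate 5 value, in the library where the family is lowest, is the highest by far, and resting replicate 4 had 0 counts, which allows up to 3 counts. The log2 fold change of Ifng was 5.26 ± 0.75 (SE; adjusted p = 8.45e-05), and without day 7 replicate 5 it was 4.46. Like Gbp2b, Ifng entered the test only through its day 7 libraries, where it is high. Its fold change is therefore given as a description. The receptor chains Ifngr1 (417 ± 35.2 and 516 ± 71.6 CPM; adjusted p = 0.054), Ifngr2 (183 ± 34.8 and 205 ± 29.8 CPM) and Ifnar1 (306 ± 64.8 and 390 ± 31.8 CPM) did not pass, nor did the kinase Jak1 (636 ± 66.3 and 574 ± 58.1 CPM). Ifngr1 passed as higher in 6 of 18 alternative fits. Irf8, an interferon regulatory factor, rose from 76.7 ± 17.8 to 420 ± 75.9 CPM, and Socs1, the feedback inhibitor of Janus kinases, from 9.49 ± 2.33 to 134 ± 26.2 CPM. The receptor chain Ifnar2 and the kinases Jak2 and Tyk2 were higher. Their log2 fold changes were 0.62, 1.66 and 0.56 (edgeR adjusted p = 0.000593, 8.83e-07 and 0.00264). Irf8 and Socs1 were thus higher too, while the interferon-gamma receptor chains did not pass.

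The immunity-related GTPases, a second interferon-induced GTPase family that acts with the guanylate-binding proteins at vacuoles, were higher at day 7 for 9 of 9 genes, against 23.3% of all genes tested (median log2 fold change 2.43). Tgtp1, whose count is uncertain because Tgtp2 is a near-identical copy, rose from 29.5 ± 3.45 to 453 ± 415 CPM (271 ± 95.5 CPM, n = 4, without day 7 replicate 1). Igtp rose from 66.9 ± 17.4 to 597 ± 239 CPM (SD, n = 5 each). Ifi47 rose from 75.4 ± 18 to 660 ± 180 CPM and Gm12250 from 21 ± 3.36 to 182 ± 47.9 CPM. Of 8 genes that mark or ubiquitinate damaged vacuoles, 6 were higher, none was lower and 2 did not pass, beside 23.3% higher and 23.4% lower over all genes. Rnf213, a ubiquitin ligase, rose from 63 ± 9.19 to 252 ± 66 CPM, and the cytosolic antibody receptor Trim21 from 14.8 ± 3.3 to 45 ± 10.9 CPM. Lgals3, a galectin that binds broken vacuoles, rose from 561 ± 55.6 to 1130 ± 241 CPM.

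Of 10 inflammasome genes, 7 were higher, 1 was lower and 2 did not pass (median log2 fold change 1.48), where 23.3% of all genes were higher and 23.4% lower. Casp1, the protease that matures interleukin-1 beta, rose from 32.1 ± 2 to 145 ± 14.8 CPM, and its adaptor Pycard from 24.7 ± 2.48 to 98.2 ± 27.4 CPM. The sensor Nlrp3 stood at 123 ± 33.2 CPM in resting lung and 464 ± 457 CPM at day 7 (SD, n = 5 each; log2 fold change 1.92 ± 0.54, SE; adjusted p = 0.0107), so that its day 7 libraries varied widely. Without day 7 replicate 1 the mean was 271 ± 179 CPM (n = 4) and the log2 fold change of Nlrp3 1.16 (adjusted p = 0.0224), and with no filter on low counts Nlrp3 did not pass. Casp4, the sensor of cytosolic lipopolysaccharide, rose from 44.1 ± 7.35 to 151 ± 41 CPM. Nek7, a kinase that binds Nlrp3, fell from 140 ± 4.88 to 95.7 ± 5.87 CPM.

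The genes for the lipid anchor and for the ATG8 conjugation system had medians near or below 0. Of 5 prenylation genes none was higher, 2 were lower and 3 did not pass (median log2 fold change -0.31), and 23.4% of all genes tested were lower. Fnta, the subunit shared by both prenyl transferases, fell from 49.8 ± 2.48 to 40.2 ± 3.75 CPM, and Pggt1b, the geranylgeranyl transferase beta subunit, from 29.1 ± 3.3 to 20.6 ± 1.19 CPM (SD, n = 5 each). Fnta did not pass in 4 of 18 alternative fits, and Pggt1b did not pass in 1. Of 10 ATG8 conjugation genes, whose products help load these GTPases onto vacuoles, 4 were higher, 3 were lower and 3 did not pass (median 0.01). With 23.3% of all genes higher and 23.4% lower, these counts are not a result about the list, and 2 of its genes are given as values. Atg5 stood at 35.9 ± 4.64 and 53.3 ± 9.33 CPM, and Map1lc3a, an ATG8 protein, at 61.3 ± 8.43 and 17.1 ± 1.06 CPM. With library totals alone the ATG8 counts were 1 higher and 4 lower.

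Marker levels beside the family's at day 7 were as follows, and their part in the result was not tested. For replicates 1 to 5 the family's sums were 9406, 5013, 4800, 3309 and 2470 CPM, and the eosinophil marker sums were 1373, 1680, 2135, 3059 and 4143 CPM. The monocyte and macrophage sums were 7808, 12292, 7941, 5287 and 5173 CPM, and the T cell sums were 693, 464, 731, 603 and 1009 CPM. The neutrophil marker sums were 6467, 1544, 2440, 1090 and 1043 CPM, so that replicate 1 was highest for both these markers and the family. The family was highest where the eosinophil sum was lowest, in replicate 1, and lowest where the eosinophil and T cell sums were highest, in replicate 5. Most of the eosinophil sum in replicate 5 came from Alox15 (1518 CPM), Adgre1 (1027 CPM) and Ccr3 (811 CPM). The monocyte and macrophage sum was highest in replicate 2 and lowest in replicate 5. Day 7 replicate 5 had the highest eosinophil marker sum of all 10 libraries. The family stood at 2470 CPM in it, above its highest resting value of 621 CPM. Its monocyte and macrophage sum (5173 CPM) and T cell sum (1009 CPM) also lay above their highest resting values, 3484 and 185 CPM. Its neutrophil sum (1043 CPM) lay below the lowest resting value, 2277 CPM. Which cells gave the family's RNA in that library was not tested.

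**Figure D5:**
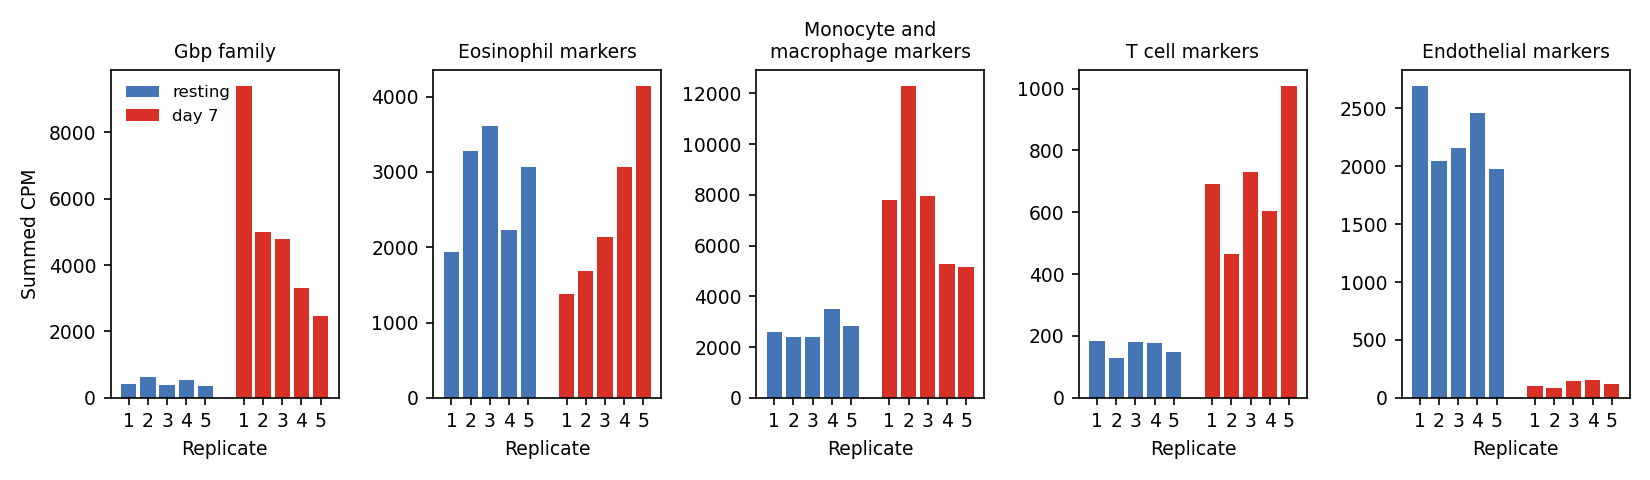
Summed CPM of the family and of 4 marker lists (y axes, each panel with its own scale from 0) in each resting (blue) and day 7 (red) library by replicate. At day 7 the family is highest in replicate 1 (9406 CPM) and lowest in replicate 5 (2470 CPM), where the eosinophil markers stand at 1373 and 4143 CPM.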

How the data were processed

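The submitters' processing notes name the build mm10 and the tools STAR 2.5.2b, Subread 1.5.2, featureCounts, Trimmomatic 0.36 and bcl2fastq 2.17. No source used here states the strand setting, the annotation release or the treatment of multiply matched reads. Whole-number counts, not normalized, were deposited by the authors in separate tables for resting lung and for day 7. Columns were tied to samples by their names, and 10 columns headed by bare numbers were not used. The tables were joined by identifier, with symbols from GENCODE M21 for 48970 of 49315. No pair of libraries in a group agreed within sampling noise. Replicates are separate pools by their labels, and if these are not independent the p-values measure technical spread only.

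Genes were filtered with filterByExpr (16500 kept) and tested with edgeR 4.0.16 (quasi-likelihood, TMM, group only; Benjamini-Hochberg, threshold 0.05) in R 4.3.3, after a test on simulated data. CPM use TMM-scaled totals. Alternatives were other scalings and filters, DESeq2 1.42.0, limma 3.58.1 (voom), a replicate block and leaving out each library. The ratio tests used scipy 1.17.1. The 3-count floor covers counting error only.

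Members and lists were chosen with earlier results of these data known. Named were all members, up to 4 called genes of each pathway list with the largest change and at least 20 CPM in the higher group, interferon genes that did not pass, up to 3 genes of each marker list by mean level, and the 5 genes most like the family. A selection of these is printed, and 1 gene that the rule names is not reported here. Epx, Prg2, Prg3, Ear2, Il1rl1, Siglecf, Nek7, Ifnar2, Jak2, Tyk2, Gm43302, Gm43802 and Gbp11 were named after their values were seen. Lists whose calls are not given elsewhere had these calls, where 23.3% of all genes were higher and 23.4% lower. For NK cells 5 of 8 were higher and 0 lower, for dendritic cells 6 of 10 higher and 1 lower, and for B cells 1 of 8 higher and 5 lower. For neutrophils 0 of 10 were higher and 5 lower, for alveolar macrophages 1 of 8 higher and 5 lower, and for stroma 1 of 8 higher and 4 lower. Epithelium (9 of 10), red cells (5 of 5 tested), platelets (6 of 6) and mitochondrial RNA (13 of 13) had only lower calls.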

Additional observations from a re-analysis of the deposited data

Results flagged for a closer look

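Of 22 sets of 5 values checked (the members and the family sum in each group), 1 held a library far from the rest: Gbp7 stood at 1679 CPM in day 7 replicate 1, and the gap to the next library was 0.781 of the group's whole range. Chance alone is expected to mark about 1 in 20 such sets.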

How the results depend on the processing

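All 10 members were higher in all 18 alternative fits, with 0.00203 as the highest adjusted p, and the largest shift was that of Gbp5, to 4.72 without day 7 replicate 1. Genes called over the whole table numbered 7249 to 7996 with 1 library left out, and 11577 (4862 higher, 6715 lower, more genes tested) with no filter on low counts. With library totals alone, 1 ATG8 conjugation gene was higher in place of 4. Of the prenylation genes 0 to 1 was higher with 1 library left out, 1 of them without day 7 replicate 5. With the replicate block, 6953 genes were called (3317 higher, 3636 lower) and 10 members were higher. Same-numbered libraries correlated at -0.19 to 0.12 in their deviations, and 0 correlated best with their own number, so the numbers were not taken as pairs. Chosen after seeing the data, 2 CPM in place of 0.5 CPM left 0 of 9 ratio pairs past the threshold. Leaving out 1 library left 0 pairs in 9 of the 10 cases and 3 without day 7 replicate 2, with fewer permutations to draw on. Levels of Gbp2b, Gbp10 and Gbp8 in resting lung rest on the fewest counts.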

Other observations

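Gbp11, a further annotated gene of the chromosome 5 cluster that is no member of the list and was named after its values were seen, had 54 counts over the 5 resting libraries and 1161 over the 5 day 7 libraries (1.14 ± 1.26 and 12.4 ± 2.87 CPM, SD, n = 5 each; log2 fold change 3.47 ± 0.51, SE; edgeR adjusted p = 0.000106). Like Gbp2b, Gbp11 entered the test only through its day 7 libraries, where it is high, so its fold change is given as a description. Resting replicate 3, at 3.31 CPM, was the highest of its group. Gbp11 shares transcript stretches with Gbp4 and Gbp8, so its counts are uncertain.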
